A study of Rattus norvegicus with 6 samples.

Results

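The cytosolic ribosomal protein genes were followed on 6 microarrays of cultured rat lenses. They are the genes whose symbol begins with Rpl, Rplp or Rps and a number, leaving out the S6 kinases. Of 36685 probe sets on the array, 260 carried such a symbol, and 167 of these had a log2 signal of at least 5 on at least 1 array. These 167 members are part of the 5784 probe sets that are linked to a gene and pass the same minimum. Of the members, 110 belong to the large subunit (Rpl and Rplp) and 57 to the small subunit (Rps).

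A ribosome joins a small and a large subunit, each a core of ribosomal RNA with many proteins around it. The small subunit reads the mRNA, the large subunit makes the peptide bond, and a stalk of acidic proteins on the large subunit recruits the elongation factors. Transcripts of these genes are among the most abundant in most cells. Many begin with a C followed by a run of pyrimidines, the 5-prime terminal oligopyrimidine (TOP) tract, through which the growth kinase mTOR controls their translation. Their mature mRNAs have also been copied back into mammalian genomes many times, which leaves many intronless copies and pseudogenes of nearly the same sequence.

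All lenses were from 6-week-old male Sprague-Dawley rats and were cultured in M199 medium with albumin. AZD0156 and KU55933, inhibitors of the DNA damage kinase Atm, were given at 20 µM in DMSO for the last 3 of 6 days in 30 mM galactose, with 1 array each. Galactose lenses received DMSO and have 3 arrays, called Galactose 1, 2 and 3. The Control has 1 array, from lenses held for 6 days without galactose, and the methods name sterile water as its vehicle. If the Control received no DMSO, the effects of the sugar and the solvent on it cannot be told apart. Galactose is the only group with replicates, and nothing in the sources says how many lenses or animals each array holds. The p-values therefore measure the spread between these 3 arrays, and each lone array is taken to spread as they do.

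The label of the tissue was checked on the 11 of 18 listed lens genes that were found on the array, all of them above the minimum. The crystallin Cryba1 had a log2 signal of 13.29 with AZD0156, 13.32 with KU55933, 13.30, 13.23 and 13.23 in galactose, and 13.26 in the Control. No probe set of the immune, endothelium, blood or retina markers reached 5 on any array. The 1 measured marker of iris and ciliary body was the muscle filament gene Des, at 3.70 with AZD0156, 3.96 with KU55933, 3.82, 3.65 and 4.18 in galactose, and 6.11 in the Control. It fell by 2.23 in galactose (limma, adjusted p = 0.0381), and its part in the results for galactose against the Control was not tested. Summed over the 7 iris and ciliary body genes on the array, the log2 signals came to 18.6 with AZD0156, 19.3 with KU55933, 17.0 to 19.1 in galactose, and 19.8 in the Control.

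By their symbols the members fall into several kinds. There are 76 probe sets of 47 parent genes, 32 of the large and 15 of the small subunit. Another 48 carry the symbol of a numbered copy such as Rpl36l2, 15 carry a pseudogene symbol ending in -ps and a number, and 1 is the paralog Rpl7l1. The remaining 27 carry several symbols, usually a parent with its own copies. RefSeq lists 45 of the 47 numbered copies of 1 symbol as protein-coding, and 10 of the 13 pseudogene symbols as pseudogenes. A probe set named for a copy may also bind the transcript of the parent, so which of the transcripts it measured was not told apart. For Rps27a, whose protein is made as a fusion with ubiquitin, no probe set under its own symbol was kept, while a probe set named Rps27a-ps1 was at 11.38 to 11.87 on the 6 arrays.

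The members stood high on every array, with 117 to 132 of the 167 among the brightest 10% of the tested probe sets. In 148 the signal was at least 5 on all 6 arrays. Another 10 passed the minimum in 1 group only, the group where they were high, so their differences from that group are tied to the choice of members. Of these, 7 passed in galactose, among them Rps12 and Rpl27al5, 2 in the Control (Rps18l5 and Rps6) and 1 with AZD0156 (Rps26-ps13). Nearest the minimum on the inside were Rps6 at 5.02, Rpl36l1 at 5.13 and Rps12l5 at 5.13, by their highest array, and nearest on the outside Rps27a-ps5 at 4.92, Rps10-ps21 at 4.76 and Rps15al2 at 4.75. The 93 probe sets below it include 46 numbered copies, 30 pseudogene symbols, 9 of parent genes and Rps19bp1, a protein that binds RPS19 and is no part of the ribosome. For 7 parent genes, Rpl5, Rpl15, Rpl26, Rpl27a, Rpl28, Rps9 and Rps16, a probe set of their own was on the array but none was kept. These are not all the missing parents. Rplp1, Rps27a and Rps4x also had no kept probe set under their symbols, and Rps26, Rpl22 and Rpl36a only ones with several symbols.

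The start of the gene is where the TOP tract lies, and 30 bases around it are shown to set parents beside copies. Each line gives 10 bases before and 20 from the annotated start (RefSeq, genome build GRCr8), 5′ to 3′ on the strand of the gene. Capitals mark the TOP run, a C at the start and at least 4 C or T after it, searched on the strand of the gene only. The first 6 are parents with the run, 3 of each subunit. Then come the parent Rpl10a with its copy Rpl10al1, and last Rpl36 and its copies Rpl36l2 and Rpl36l6, which appear again below and have no such run at the annotated start.
Rpl10, chrX:157205840-157205869, plus strand: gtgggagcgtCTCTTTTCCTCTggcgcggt
Rpl37a, chr9:81748081-81748110, plus strand: cccgttgcgtCTCTTCCTCTTCgggcttgg
Rpl35, chr3:43165902-43165931, minus strand: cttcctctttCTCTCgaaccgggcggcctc
Rps3a, chr2:173827023-173827052, minus strand: gtacttccgcCCTTTTggctctcagagcgg
Rps15, chr7:10068096-10068125, minus strand: acaccgcttcCTTTTCCCagcagccgccaa
Rps27, chr2:177964587-177964616, minus strand: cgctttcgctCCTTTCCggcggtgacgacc
Rpl10a, chr20:6390523-6390552, plus strand: cttctgccttCTTTTCCggttcccgcagcc
Rpl10al1, chr6:93086396-93086425, minus strand: aaacaatttgCTTCTTTTCCggttcccaca
Rpl36, chr9:1533770-1533799, plus strand: cggccgccatcggaaagctgcaggtaagtc
Rpl36l2, chr1:95190401-95190430, minus strand: attaaaactagacctttagcttcctgtctg
Rpl36l6, chr6:104550021-104550050, minus strand: tccctgtttcgatcctggctcccatgggat

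Of the 47 parent genes, 40 had a start in the table, and 16 of the 40 (40.0%) held the run at the start. Among the numbered copies it was 2 of 35 (5.71%), Rpl10al1 and Rpl8l1, and among all 27457 genes of the table it was 722 (2.63%). Counted anywhere within 10 bases of the start, the shares were 70.0% of the parents, 37.1% of the copies and 28.8% of all genes. The run was at the start in 12 of 27 parents of the large subunit (44.4%) and in 4 of 13 of the small subunit (30.8%). Annotated starts can be some bases off, so the absence of the run says only that these letters were not at that position.

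On the galactose arrays the members did not vary evenly. Galactose 1 was above both Galactose 2 and Galactose 3 in 136 of the 167 members (81.4%), against 1664 of the 5784 tested probe sets (28.8%). The median member was 0.36 higher on Galactose 1 than on the mean of the other two, while the median tested probe set differed by -0.09. For parent genes the median was 0.23 and for numbered copies 0.60, and 58 of 76 parents and 43 of 48 copies had their highest galactose value on Galactose 1. The SD over the galactose arrays was wider for copies (median 0.40) than for parents (0.18), beside 0.20 for all tested probe sets. Galactose 1 stands apart in these transcripts, so the medians of the members and of the main kinds of symbol are given below with and without it.

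**Figure D1:**
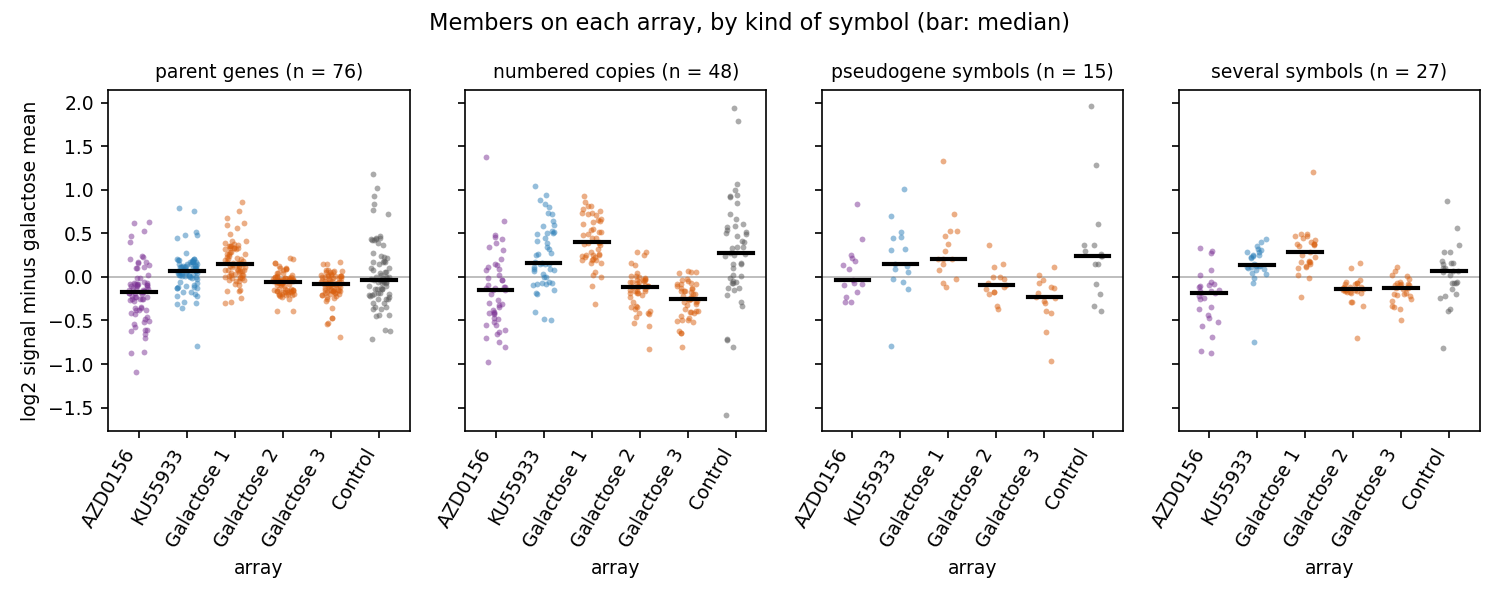
Log2 signal of each member minus the mean of the 3 galactose arrays (vertical axis), for the 6 arrays (horizontal axis), in 4 panels by kind of symbol; each point is a probe set and each bar a median. Galactose 1 stood above Galactose 2 and 3 in all 4 panels, with a median of 0.40 for the 48 numbered copies and 0.15 for the 76 parent probe sets.

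The first comparison asks how these transcripts differed between lenses with and without galactose. Of the 167 members, 3 were called higher and 1 lower in galactose than in the Control (limma, adjusted p under 0.05). Over all tested probe sets 1.61% were called higher and 1.26% lower, so that the counts for the members, 1.80% and 0.599%, lay near this background. All 4 are copies or carry several symbols, and 0 of the 76 parent probe sets were called, with an unadjusted p under 0.05 for 5 higher and 3 lower ones. That is 6.58% and 3.95% of the parents, against 11.2% and 11.9% of all tested probe sets, and over all members it was 10 higher and 8 lower. All 4 calls were lost when Galactose 2 was left out, and likewise without Galactose 3. Leaving out Galactose 1 raised the prior degrees of freedom of the limma fit from 4.97 to 108. Without Galactose 1 the estimated spread was smaller and 66 members were called, 14 higher and 52 lower, among 28.4% of all tested probe sets.

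Rplp2l3, a copy of the acidic stalk gene Rplp2, had a log2 signal of 7.46 with AZD0156, 7.39 with KU55933, 7.69, 7.85 and 7.86 in galactose, and 6.21 in the Control. All 5 arrays with galactose were above the Control, and galactose alone was higher by 1.59 (SE 0.25, limma, adjusted p = 0.0367). A second probe set of the same symbol did not follow it, with 8.89, 7.83 and 8.01 in galactose, 8.66 in the Control and a difference of -0.41 (adjusted p = 0.608). Rplp2 itself read 10.24 with AZD0156, 10.32 with KU55933, 10.45, 10.45 and 10.33 in galactose, and 9.78 in the Control by its probe set with the higher mean. Its difference of 0.63 did not pass (adjusted p = 0.126), and its second probe set gave 0.30.

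The numbered copy Rpl36l2 read 11.12 with AZD0156, 11.30 with KU55933, 11.84, 11.74 and 11.75 in galactose, and 10.97 in the Control. The 3 galactose arrays lay close together, above the other 3 arrays, and Rpl36l2 rose by 0.81 (SE 0.16, adjusted p = 0.0496). It no longer passed when the arrays were centred, when no minimum was set, or without the trend in the spread. A probe set shared by Rps7 and Rps7-ps23, named here after its values were seen, read 11.70 with AZD0156, 12.30 with KU55933, 12.28, 12.12 and 12.37 in galactose, and 11.45 in the Control. It rose by 0.81 (SE 0.16, adjusted p = 0.0484) and failed under the same settings, and the other probe set of the same symbols differed by 0.22. RPS7 is a protein of the small subunit that can also bind the p53 ligase MDM2.

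Rpl28l3 was the 1 member that fell. Its log2 signal was 5.99 with AZD0156, 6.97 with KU55933, 6.27, 5.89 and 5.92 in galactose, and 7.82 in the Control, and it fell by 1.79 in galactose (SE 0.26, adjusted p = 0.0314). The Control stood above all other arrays, with KU55933 next. RefSeq lists Rpl28l3 under its own symbol, and Rpl28 itself, a large subunit protein, was among the genes without a kept probe set.

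**Figure D2:**
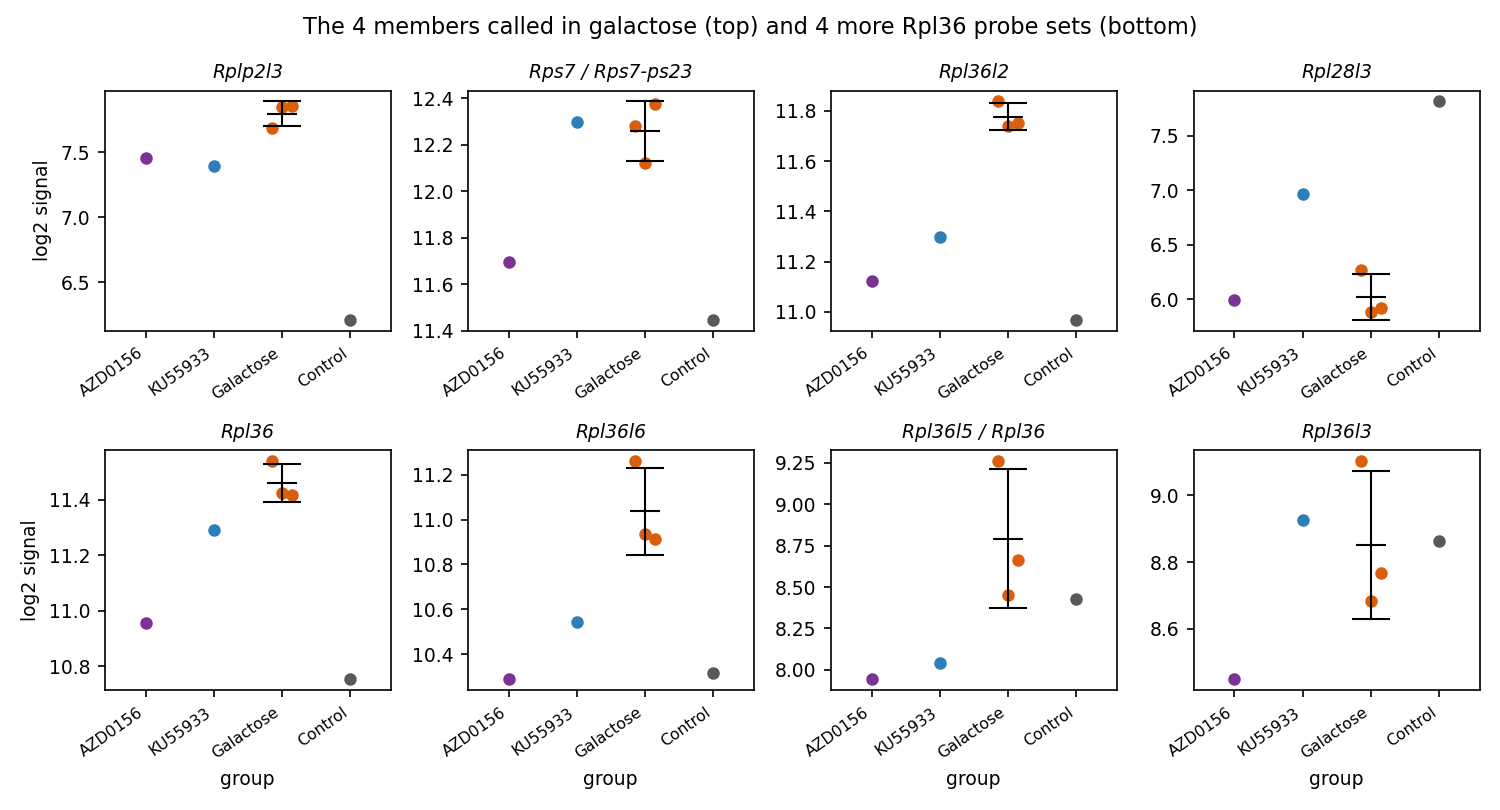
Log2 signal (vertical axis, its range set for each panel and not starting at 0) by group (horizontal axis) for the 4 members called in galactose against the Control, in the top row, and for 4 more probe sets with an Rpl36 symbol, in the bottom row. Points are arrays, and the bar with whiskers is the mean ± SD of the 3 galactose arrays; Rpl28l3 was highest in the Control at 7.82, and Rplp2l3 was lowest there at 6.21.

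Several members with larger differences did not pass. Rpl22-ps2 read 8.50 with AZD0156, 8.36 with KU55933, 8.39, 7.32 and 7.27 in galactose, and 9.62 in the Control, a difference of -1.96 (SE 0.46, adjusted p = 0.074). The Control was again the highest array, and Galactose 1 stood well above the other two. A brighter probe set shared by Rpl22 and Rpl22-ps2 differed by -0.29. Rps18l5 differed by -1.94 (adjusted p = 0.0835) but reached the minimum of 5 only in the Control, at 5.70, with 3.11 to 4.81 on the other arrays. Brighter probe sets shared by Rps18, Rps18l1 and Rps18l5 differed by -0.56 and -0.36. Rpl31-ps11 differed by -1.28 (adjusted p = 0.367) with galactose values of 8.81, 7.10 and 6.51. Rpl5l1, a copy of Rpl5, read 9.61 with AZD0156, 9.63 with KU55933, 9.41, 9.16 and 9.09 in galactose, and 10.22 in the Control, a difference of -1.001 (adjusted p = 0.0777). Rpl5l1 was named here after its values were seen.

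Among parent genes Rpl29, whose product sits on the surface of the large subunit, had the lowest adjusted p. It read 9.73 with AZD0156, 9.05 with KU55933, 9.37, 8.97 and 8.99 in galactose, and 10.30 in the Control, a difference of -1.19 (SE 0.26, adjusted p = 0.0662). The galactose arrays were all below the Control, and the AZD0156 array lay between them. Rps3, a small subunit protein at the mRNA entry that also acts in DNA repair, read 8.42 with AZD0156, 8.40 with KU55933, 8.55, 8.13 and 7.97 in galactose, and 9.14 in the Control, a difference of -0.93 (adjusted p = 0.133). All 5 arrays with galactose were below the Control.

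Over all members the median difference of galactose from the Control was -0.06, beside -0.02 for all tested probe sets, with 75 members above and 92 below 0. The kinds of symbol did not share 1 value. The parent probe sets had a median of 0.03, the numbered copies -0.27 and the pseudogene symbols -0.24, while the probe sets with several symbols had -0.07. Without Galactose 1 the medians were -0.15 for all members, 0.01 for parents, -0.52 for copies, -0.27 for pseudogene symbols and -0.16 for several symbols, and with the arrays centred on their medians over all probe sets the parents were at -0.03, on the other side of 0. Taking 1 probe set for each of the 47 parent genes, the median was 0.04, with 27 genes above and 20 below 0 and 7 that differed by at least 0.5.

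Counted by position, the Control array was above all 3 galactose arrays in 42 members (25.1%) and below all 3 in 43 (25.7%). The same was true of 35.2% and 32.8% of all tested probe sets. The Control lay outside the galactose range in a smaller share of members than of tested probe sets. The galactose SD had a median of 0.23 over the members and 0.20 over all tested probe sets.

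The inhibitor comparisons ask how the transcripts differed once AZD0156 or KU55933 had been added to lenses already in galactose. Both are set against the same 3 galactose arrays, so their values are not independent. With AZD0156, 0 members and 0% of all tested probe sets were called at an adjusted p under 0.05 (limma). At an unadjusted p under 0.05, 3 members were higher and 17 lower, which is 1.80% and 10.2%, against 1.33% and 12.4% of all tested probe sets. Without Galactose 1, 21 members were called higher and 27 lower, among 18.2% of all tested probe sets. The AZD0156 array lay below all 3 galactose arrays in 84 of 167 members (50.3%) and above all 3 in 16 (9.58%), against 46.6% and 14.2% of all tested probe sets.

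The AZD0156 array had the lowest median over the tested probe sets, 5.55 against 5.69 to 5.81 in galactose, but the highest over all probe sets, 3.11 against 3.01 to 3.04 in galactose. The median tested probe set differed from the galactose mean by -0.18 and the median member by -0.16. Centring each array on its own median over the tested probe sets takes out a shift of -0.20. The median member was then at 0.04, beside 0.02 for all tested probe sets, and the direction of the group was turned. Centring on the median over all probe sets put the median member at -0.24, with 129 of 167 below 0. All tested probe sets were then at -0.27, with 4544 of 5784 below 0. The direction of the members with AZD0156 thus depends on the centring. Without Galactose 1 and without centring the median member was at -0.05, beside -0.21 for all tested probe sets. With all 3 galactose arrays the parents had a median of -0.17 with 60 of 76 below 0, beside 4093 of the 5784 tested probe sets. The copies had -0.15 with 33 of 48 below 0, and the pseudogene symbols -0.04 with 8 of 15 below 0. Without Galactose 1 the parents were at -0.10 with 51 of 76 below 0, beside 4169 of the 5784 tested probe sets. The copies were then at 0.07 with 28 of 48 above 0, and the pseudogene symbols at 0.16 with 12 of 15 above 0. Of all tested probe sets, 1615 were above 0 in this setting.

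Some single genes lay further from the galactose mean than this shift, though none of them passed. Rpl11, which with Rpl5 and the 5S RNA forms a particle that can hold back MDM2, read 8.23 with AZD0156, against 9.10, 9.03 and 9.15 in galactose. The difference was -0.86 (95% interval -1.42 to -0.31, adjusted p = 0.23). KU55933, at 9.11, lay within the galactose range, and the Control, at 8.90, lay much nearer to it than AZD0156 did. Rps24, a small subunit protein mutated in some people with Diamond-Blackfan anemia, read 5.12 with AZD0156, against 5.98, 5.95 and 6.05 in galactose, a difference of -0.88 (adjusted p = 0.212). KU55933 was at 6.17, above the galactose arrays, and the Control at 5.39, below them. A brighter probe set shared by Rps24 and Rps24-ps15 did not follow it. That probe set read 10.91 with AZD0156, against 11.26, 10.81 and 10.84 in galactose, a difference of -0.06.

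Rpl41, the shortest ribosomal protein, read 11.58 with AZD0156, against 12.13, 12.26 and 12.09 in galactose, by its probe set with the higher mean. The difference was -0.58 (adjusted p = 0.221), and the other probe set gave -0.35. KU55933 at 12.21 and the Control at 12.16 lay within the galactose range. Rpl35, at the exit of the peptide tunnel, read 9.70 with AZD0156, against 10.34, 10.30 and 10.31 in galactose, a difference of -0.62 (adjusted p = 0.281). Rpl27, another large subunit gene, read 9.44 with AZD0156, against 10.09, 10.07 and 10.11 in galactose, a difference of -0.65 (adjusted p = 0.277). For both genes the galactose arrays lay very close together, and AZD0156 was the lowest of the 6 arrays by a wide gap. Rpl35 and Rpl27 were named here after their values were seen.

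Rpl6, a large subunit protein, differed by -0.70 (adjusted p = 0.312) by 1 probe set and by -0.23 by the other. Among copies, Rps19l3 differed by -0.98 (adjusted p = 0.366) and Rps26l5 by -0.81 (adjusted p = 0.267). A few members were higher with AZD0156. Rpl37al2, a copy of a zinc-binding large subunit gene, read 6.31 with AZD0156, against 4.62, 5.19 and 4.99 in galactose, 4.76 with KU55933 and 4.22 in the Control. The difference of 1.37 (95% interval 0.71 to 2.04, adjusted p = 0.212) was the largest of any member with AZD0156, and AZD0156 stood alone above the other 5 arrays. Rpl29 differed by 0.62 (adjusted p = 0.36), Rpl22-ps2 by 0.84 and Rpl10l4 by 0.64. The brighter probe set shared by Rpl22 and Rpl22-ps2 differed by -0.08. Of the members with several symbols, both probe sets of Rps25 and Rps25l3, named after their values were seen, were below all galactose arrays with AZD0156. The first read 9.64 with AZD0156, against 10.72, 10.15 and 10.14 in galactose (difference -0.70, adjusted p = 0.352), and the second 8.93 with AZD0156, against 10.20, 9.62 and 9.59 (difference -0.87, adjusted p = 0.291).

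The gene Rpl10, whose product joins the large subunit last, shows how far 2 probe sets of 1 gene could part. By the one with the higher mean it read 8.40 with AZD0156 and 8.56 with KU55933, 8.45, 7.57 and 7.30 in galactose, and 8.79 in the Control, so that AZD0156 differed by 0.63. By the other it read 4.60 with AZD0156 and 5.71 with KU55933, 5.89, 5.69 and 5.48 in galactose, and 6.13 in the Control, so that AZD0156 differed by -1.09 (adjusted p = 0.212). The 2 differences have opposite signs, and neither passed. Of the 20 genes with several probe sets, 14 kept their probe sets within 0.5 of each other in all 4 comparisons and 6 did not. For Rpl39, one of the smallest large subunit proteins, with 6 probe sets of which 2 hold the same values, the widest gap was 0.12.

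With KU55933, again 0 members and 0% of all tested probe sets were called (limma). At an unadjusted p under 0.05, 2 members were higher and 2 lower, 1.20% each way, against 2.3% and 1.16% of all tested probe sets. Leaving out Galactose 1 gave 46 higher and 3 lower calls, among 7.59% of all tested probe sets. The 2 higher were Rpl28l3, by 0.95 (95% interval 0.33 to 1.56), and Rpl10l4, by 0.84. The 2 lower were Rpl36l2, by -0.48, and Rps26-ps13, by -0.79, all at an adjusted p of 0.992. Rps26-ps13 reached the minimum only with AZD0156, at 5.14. The KU55933 array was above all 3 galactose arrays in 40 members (24.0%) and below all 3 in 19 (11.4%), against 29.9% and 17.7% of all tested probe sets.

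The median member was 0.12 above the galactose mean with KU55933, beside 0.05 for all tested probe sets. With the arrays centred on the tested probe sets it was 0.08, with all probe sets as the base of the centring 0.14, and without Galactose 1 it was 0.22. In 118 of the 167 members KU55933 was nearer to Galactose 1 than to the mean of Galactose 2 and 3, against 3068 of the 5784 tested probe sets. The largest single values did not pass. Rps18l5 differed by 1.05, Rpl31-ps11 by 1.01, Rpl23al4 by 0.88 and Rps12 by -0.79, and in these 4 the SD of the galactose arrays was 0.55 to 1.19. Rps12 reached the minimum only on Galactose 1, at 5.13, so its lower value with KU55933 is tied to that choice, and Rps18l5 reached it only in the Control. The brighter probe sets shared by Rps18, Rps18l1 and Rps18l5 differed by 0.40 and 0.13.

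**Figure D3:**
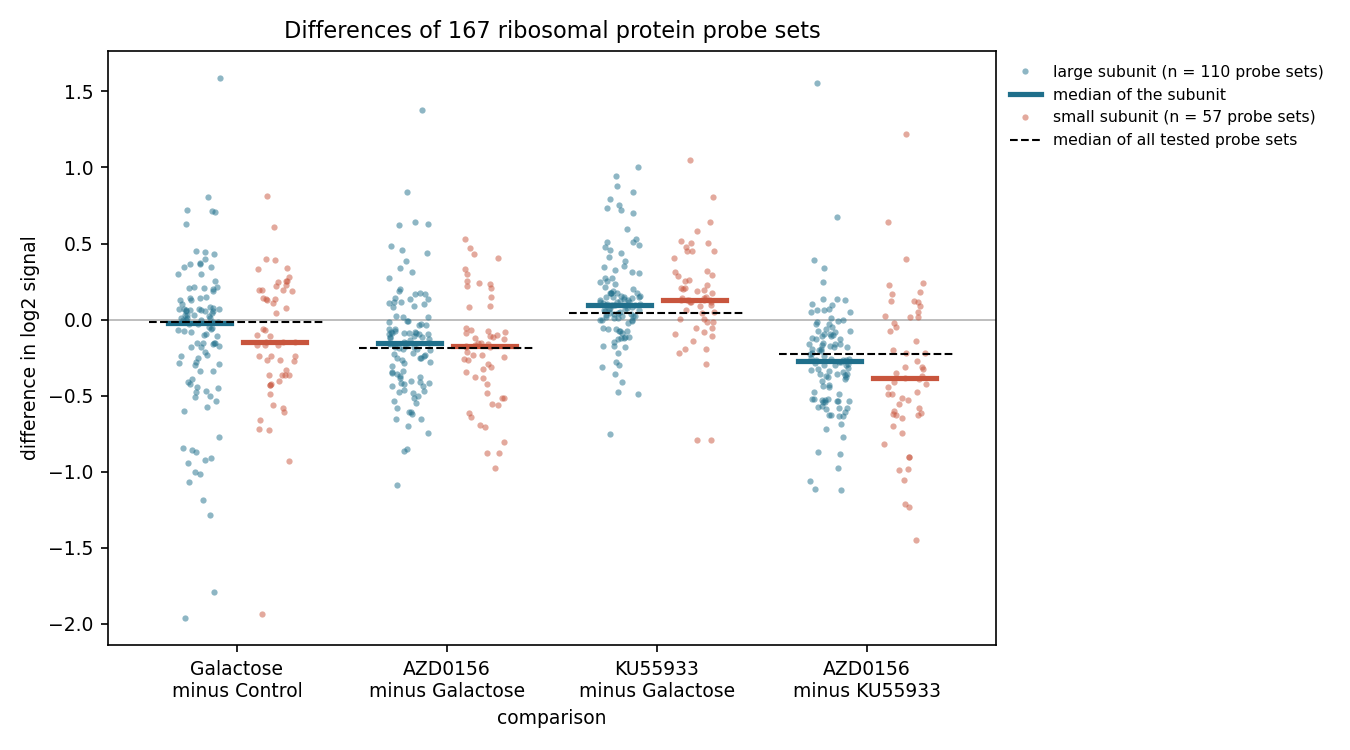
Difference in log2 signal (vertical axis) for the 4 comparisons (horizontal axis), with the 110 large subunit and the 57 small subunit probe sets as points. Thick bars are the median of each subunit and the dashed line is the median of all 5784 tested probe sets; with AZD0156 against galactose the medians were -0.15 for the large and -0.17 for the small subunit, beside -0.18 for all.

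Between the inhibitors, given at the same dose for the same time, 0 members and 0% of all tested probe sets were called (limma). At an unadjusted p under 0.05, AZD0156 exceeded KU55933 in 2 members and was below it in 15, 1.20% and 8.98%, against 0.882% and 10.8% of all tested probe sets. When Galactose 1 was left out, 4 were called higher and 50 lower, among 13.9% of all tested probe sets. The median member differed by -0.30, beside -0.23 for all tested probe sets, and by -0.06 once the arrays were centred on those. Centred on the median over all probe sets, a shift of 0.11, the median member differed by -0.41 with 149 of 167 below 0. All tested probe sets were then at -0.335, with 4745 of 5784 below 0. The parents had a median of -0.24, of 0.002 when centred on the tested probe sets, and of -0.35 with 68 of 76 below 0 when centred on all, so the 2 centrings moved it in opposite directions. Rpl37al2 was at 6.31 with AZD0156 and 4.76 with KU55933, a difference of 1.55 (95% interval 0.74 to 2.37, adjusted p = 0.314). Rps24 was at 5.12 with AZD0156 and 6.17 with KU55933, a difference of -1.05 (95% interval -1.65 to -0.46, adjusted p = 0.314). The brighter probe set shared by Rps24 and Rps24-ps15 differed by -0.35. The 95% interval of a difference between these 2 arrays reached 0.74 to each side for the median tested probe set, so smaller differences could not be told from 0 there.

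Other members toward the high end of this comparison were Rps26-ps13, at 1.22, Rpl29, at 0.67, Rps14, at 0.40, and Rpl18, at 0.39. Toward the low end were Rps17l3, at -1.45, Rps19l3, at -1.23, Rps20l4, at -1.21, and Rpl27al5, at -1.06. None of these 8 passed. Rps26-ps13 is a member only through the AZD0156 array, where it read 5.14, against 3.92 with KU55933, so its difference is tied to the choice of members.

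Rpl36 and its copies were members in which several probe sets of 1 family lay on the same side in galactose and on the opposite side with both inhibitors. They were picked out after their values were seen, so their medians are a description. Rpl36, a large subunit protein near the tunnel exit, read 10.95 with AZD0156, 11.29 with KU55933, 11.54, 11.42 and 11.42 in galactose, and 10.75 in the Control. All 3 other arrays were below the galactose arrays. Rpl36 differed by 0.71 between galactose and the Control (adjusted p = 0.0762), by -0.51 with AZD0156 (adjusted p = 0.282) and by -0.17 with KU55933 (adjusted p = 0.992).

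The numbered copy Rpl36l6 read 10.29 with AZD0156, 10.54 with KU55933, 11.26, 10.93 and 10.91 in galactose, and 10.32 in the Control, and again the 3 galactose arrays were the highest. Its differences were 0.72 in galactose (adjusted p = 0.113), -0.75 with AZD0156 (adjusted p = 0.247) and -0.49 with KU55933 (adjusted p = 0.992). A probe set shared by Rpl36l5 and Rpl36 read 7.94 with AZD0156, 8.04 with KU55933, 9.26, 8.45 and 8.66 in galactose, and 8.43 in the Control. Both inhibitor arrays were below all galactose arrays, and the Control was just below the lowest of them.

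Over the 6 Rpl36 probe sets, 4 with the pattern and also Rpl36l3 and Rpl36l1, the medians were 0.54 for galactose minus the Control, -0.58 for AZD0156 and -0.32 for KU55933. When the arrays were centred on the tested probe sets they were 0.58, -0.38 and -0.36, centred on all probe sets they were 0.48, -0.67 and -0.30, and without Galactose 1 they were 0.37, -0.54 and -0.26. AZD0156 was below all galactose arrays in 5 of the 6 and KU55933 in 4 of the 6. Rpl36l1 reached the minimum only in galactose, at 5.04 and 5.13. Its differences from galactose, which enter these medians, are therefore tied to the choice of members. The copies resemble Rpl36 in sequence, so the probe sets may not measure separate genes. All 3 comparisons share the galactose arrays, so their opposite signs are not independent.

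The large and small subunits are compared by their medians. For galactose minus the Control the median was -0.02 over the 110 large subunit and -0.15 over the 57 small subunit probe sets, 0.13 apart. For AZD0156 the medians were -0.15 and -0.17, and for KU55933 they were 0.10 and 0.13, apart by 0.02 and -0.03. For AZD0156 minus KU55933 they were -0.27 and -0.38, apart by 0.11. Over the 3 galactose arrays the gap between the subunits had an SD of 0.04, and that of the members' median was 0.20. The gap for galactose minus the Control was larger than that spread, which does not include how a lone Control array varies. That gap was -0.06 when copies, paralog and pseudogene symbols were left out and 0.16 over the 76 parent probe sets. Its direction was thus not kept. Without Galactose 1 the medians of the large and small subunit were -0.14 and -0.20 in galactose, -0.06 and -0.05 with AZD0156, and 0.21 and 0.23 with KU55933. For AZD0156 minus KU55933 the gap was -0.05 over the 76 parent probe sets. With 1 probe set for each parent gene, the large and small subunit medians were 0.06 and -0.17 for galactose minus the Control. They were -0.16 and -0.17 with AZD0156, and 0.04 and 0.13 with KU55933. For AZD0156 minus KU55933 they were -0.22 and 0.02, further apart than over the parent probe sets.

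**Figure D4:**
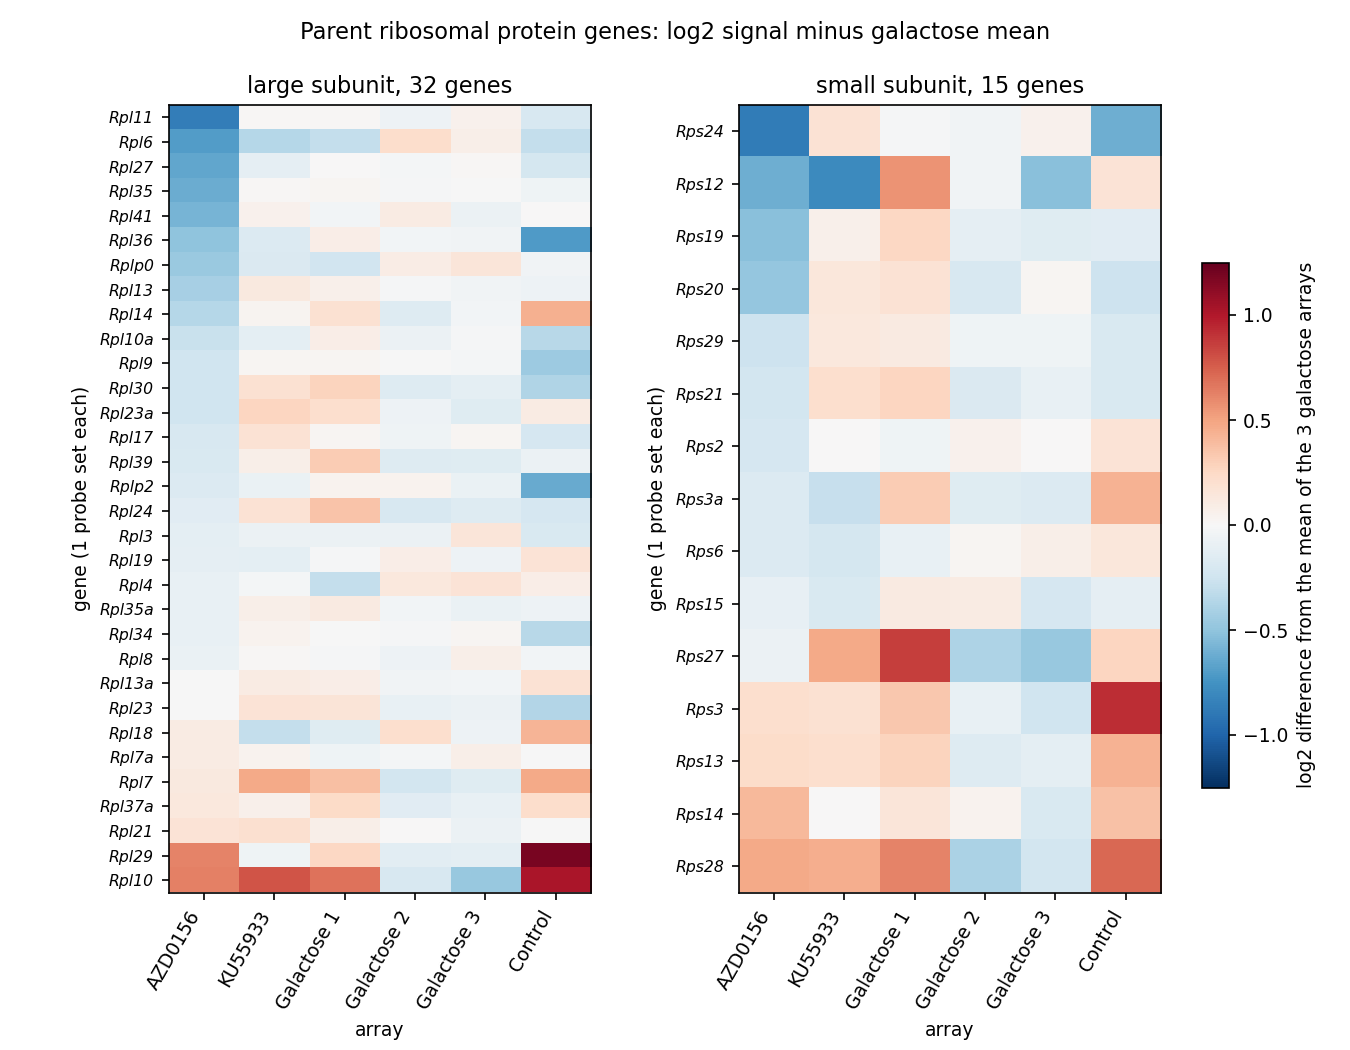
Log2 signal minus the mean of the 3 galactose arrays (colour, red above and blue below) for 32 large subunit and 15 small subunit parent genes (rows, ordered by their AZD0156 value, 1 probe set each) on the 6 arrays (columns). Rpl11 and Rps24 stood lowest with AZD0156, at -0.86 and -0.88, and Rpl29 and Rpl10 highest in the Control.

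Genes taken for their known roles follow by subunit. On the stalk, the base protein gene Rplp0 read 8.83 with AZD0156, 9.12 with KU55933, 9.06, 9.38 and 9.44 in galactose, and 9.25 in the Control, and no difference passed (0.04 in galactose, -0.46 with AZD0156). Rpl3, at the peptidyl transferase centre, differed by 0.19 in galactose and -0.12 with AZD0156. Rpl13a, known in mammals for silencing of inflammatory mRNAs, differed by -0.18 in galactose, -0.01 with AZD0156 and 0.10 with KU55933. Rpl23a differed by -0.10 in galactose and -0.25 with AZD0156 by its probe set with the higher mean. The other probe set of Rpl23a gave -0.84 and -0.54.

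In the small subunit, Rps2, at the mRNA entry, differed by -0.17 in galactose and -0.21 with AZD0156. Rps14, one of the genes lost in a human anemia with a chromosome deletion, read 9.82 with AZD0156, 9.42 with KU55933, 9.57, 9.46 and 9.22 in galactose, and 9.78 in the Control. AZD0156 and the Control were the highest arrays, and the difference with AZD0156 was 0.41 (adjusted p = 0.503). Rps19, the gene most often mutated in Diamond-Blackfan anemia, differed by 0.14 in galactose and -0.52 with AZD0156 (adjusted p = 0.431) by its probe set with the higher mean. The other probe set of Rps19 gave 0.13 and -0.15. Rps20 had 3 probe sets that agreed, with -0.38, -0.48 and -0.43 for AZD0156. Rps6, the substrate of the S6 kinases, was at 4.70 with AZD0156, 4.65 with KU55933, 4.78, 4.89 and 4.94 in galactose, and 5.02 in the Control, at the edge of the minimum.

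Of the paralog pairs, both partners were kept only for Rpl7 and Rpl7l1. Rpl7 read 8.35 with AZD0156, 8.71 with KU55933, 8.60, 7.999 and 8.08 in galactose, and 8.70 in the Control. Rpl7l1 read 6.42 with AZD0156, 6.58 with KU55933, 6.49, 7.06 and 7.02 in galactose, and 6.46 in the Control. Galactose 1 was the highest galactose array for Rpl7 and the lowest for Rpl7l1. The differences in galactose were -0.48 and 0.40, and neither passed. Rps27l, a p53 target in humans, Rpl22l1 and Rpl39l had no kept probe set under their own symbols, while Rps27 differed by -0.27 in galactose at a galactose SD of 0.75.

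Parents with and without the TOP run at the start are set side by side as a description. With all 3 galactose arrays, the 16 parents with the run at the start had medians of 0.05 in galactose, -0.14 with AZD0156 and 0.03 with KU55933. The 24 other parents had medians of 0.0003, -0.16 and 0.05. For AZD0156 minus KU55933 they were -0.16 with the run and -0.10 without it. Rpl35, with the run, and Rpl11, without it, were both low with AZD0156.

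Genes around the ribosome were read from lists given beside the members, with all 3 galactose arrays in use. Of the ribosomal proteins whose symbols fall outside the rule, 3 were tested and 0 called in any comparison (limma). Fau, a small subunit protein made as a fusion, read 7.95 with AZD0156, against 8.87, 8.42 and 8.73 in galactose, a difference of -0.72 and the 1 value of the list with an unadjusted p under 0.05. Rpsa differed by 0.20 with AZD0156 and Rack1 by -0.17. The 5 elongation factor probe sets had 0 calls, with medians of 0.06 in galactose and 0.06 with KU55933, and Eef1g, at 0.52 with AZD0156, was the 1 at an unadjusted p under 0.05.

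The 27 initiation factor probe sets had 0 calls, with medians of 0.09 in galactose, -0.12 with AZD0156 and 0.05 with KU55933, and 1 higher and 1 lower in galactose and 2 lower with AZD0156 at an unadjusted p under 0.05. Of 8 probe sets of other genes with a known TOP tract, 0 were called, with medians of 0.0048 in galactose and -0.05 with AZD0156, and 1 higher and 1 lower in galactose and 1 lower with AZD0156 at an unadjusted p under 0.05. The 56 mitochondrial ribosomal proteins, which serve another ribosome, had 0 calls. Their medians were -0.0036 in galactose, -0.36 with AZD0156 and 0.13 with KU55933, beside -0.02, -0.18 and 0.05 for all tested probe sets. An unadjusted p under 0.05 was reached by 6 higher and 2 lower ones in galactose, 13 lower ones with AZD0156, and 3 with KU55933, of which 2 were higher. With AZD0156 the share that was lower at this p was 10.2% over the cytosolic members and 12.4% over all tested probe sets. The 13 of 56 mitochondrial ones are a larger share than either.

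Ribosome biogenesis was the 1 list near the ribosome with calls. Of 43 probe sets, 2 rose and 1 fell in galactose, with a median of 0.26, beside the -0.06 of the ribosomal protein members and calls for 1.61% and 1.26% of all tested probe sets. An unadjusted p under 0.05 was reached by 13 higher and 1 lower probe set in galactose and by 8 lower ones with AZD0156, against 11.2%, 11.9% and 12.4% of all tested probe sets. Imp3, of the small subunit processome, read 5.74 with AZD0156, 7.12 with KU55933, 7.06, 7.42 and 7.15 in galactose, and 5.72 in the Control. It rose by 1.49 in galactose (adjusted p = 0.0394), and with AZD0156 it lay with the Control, a difference of -1.47 (adjusted p = 0.212). Nip7, of large subunit assembly, rose by 1.17 (adjusted p = 0.0427), and Taf1d, of the RNA polymerase I factor SL1, fell by 1.42 (adjusted p = 0.0344). Among 11 regulators of translation and ribosomal stress 0 were called, with 2 higher and 2 lower in galactose at an unadjusted p under 0.05. Mdm2, the p53 ligase to which free ribosomal proteins can bind, differed by 1.67 in galactose (adjusted p = 0.101), and the p53 target Cdkn1a by 1.54 (adjusted p = 0.0917).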

How the data were processed

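RNA of cultured rat lenses was hybridised to Rat Gene 2.0 ST arrays, 1 sample an array. The authors deposited log2 signals after robust multi-array averaging (RMA) in R; the package and version are not given in the sources used here. RMA brings all arrays to 1 distribution of probe signals, so a shift of the whole array cannot be seen in these values. Probe sets were named from GEO's platform annotation, and copies that share probes are not told apart by it.

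Members and gene lists were chosen with earlier results of these data known. A probe set was tested if it was linked to a gene and had a log2 signal of at least 5 on at least 1 array, which left 5784 of 19086. limma 3.58.1 in R 4.3.3 fitted 4 group means over all 6 arrays, with eBayes and a trend on the mean signal (2 residual and 4.97 prior degrees of freedom), and p-values were adjusted over all tested probe sets by Benjamini-Hochberg. The spread comes from the 3 galactose arrays alone. The median SE of a single array against their mean was 0.26. A member was named if it carried 1 symbol and was called, was among the 5 largest differences of a comparison in either direction, or stood on a list of genes by role. Rpl5l1, Rpl27 and Rpl35 met none of these conditions and were named after their values were seen. The shared probe sets of Rps7 and of Rps25 carry several symbols and were also named after that. The Rpl36 probe sets were likewise picked out as a family after their values were seen. Shared probe sets of Rpl22, Rps18 and Rps24 were given beside named members that carry 1 of their symbols. Of several probe sets of a gene, that with the highest mean was used. The steps were tested on simulated data. Intervals are at 95%. Other work was in Python 3.11.15 with numpy 2.4.6, pandas 2.3.3 and matplotlib 3.10.9.

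The alternatives were 2 centrings of the arrays, no minimum, a minimum on the mean signal, no trend, leaving out each galactose array, and subsets of the members. Subsets of parent genes only were added after the data were seen.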

Additional observations from a re-analysis of the deposited data

How the results depend on the processing

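Over 42 named differences and their alternatives, 281 of 330 values kept their direction and their side of the threshold, 33 passed only without Galactose 1, 16 no longer passed, and 0 changed direction. Members called in galactose against the Control, 4 in all, came to 2 with either centring, with no minimum and without the trend, to 1 without copies, paralog and pseudogene symbols, and to 0 over parent genes. Leaving out 1 galactose array gave 0 to 66 calls there, 0 to 48 for AZD0156, 0 to 49 for KU55933 and 0 to 54 for AZD0156 minus KU55933, the highest each time without Galactose 1, where the prior degrees of freedom were 108. The members' median for AZD0156 minus KU55933 was -0.0597 with the arrays centred on the tested probe sets and -0.407 centred on all probe sets. All tested probe sets were there at 0.0125 and -0.335. For AZD0156 the members' median was 0.04 and -0.24, beside 0.02 and -0.27 for all tested probe sets. Leaving out 1 galactose array put the members' median at -0.15 to 0.01 for galactose, -0.24 to -0.05 for AZD0156 and 0.04 to 0.22 for KU55933. The gap of the large from the small subunit in galactose was 0.0679 to 0.108 with 1 galactose array left out, 0.168 without probe sets of several symbols and -0.0625 without copies. Over all parent probe sets it was -0.0808 for KU55933 and -0.0516 for AZD0156 minus KU55933, and 0.0375 in the last without copies. The cause was not tested. No paired analysis was possible because only the galactose arrays carry replicate numbers. With 1 array each for AZD0156, KU55933 and the Control, the spread within those groups is unknown.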

Other observations

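The lens list had 2 of 11 probe sets called, both lower in galactose than in the Control (limma): Foxe3, which encodes a forkhead factor of lens epithelial cells, and Gja3, a connexin of lens fibres. Summed over the 11 genes, the log2 signals were 113.1 with AZD0156, 114.0 with KU55933, 111.8 to 114.3 in galactose and 118.3 in the Control. Of the other cell type lists, 0 of 6 immune, 0 of 3 endothelium, 0 of 2 blood and 0 of 5 retina probe sets reached the minimum, and the highest of them on any array was an immune marker at 4.74.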
